A study of Rattus norvegicus with 45 samples.

Results

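Striatum and frontal cortex of the same 5 vehicle-treated rats were compared, gene by gene, on Affymetrix rat genome arrays. The comparison used 10 of the 45 arrays of the series, all arrays labelled as vehicle from these regions, paired by the animal numbers 32 to 36 in the labels. The animals were male Sprague-Dawley rats, implanted under the skin with osmotic minipumps at 9 to 11 weeks of age and given vehicle (dilute acetic acid in water) for 21 days. The 5 rats given haloperidol (0.25 mg/kg/d) and the 5 given risperidone (5 mg/kg/d) over the same 21 days served only to see whether the region difference was found in other animals. The tissue label of the arrays speaks of mouse although the organism is given as rat. Whole striatum and frontal cortex were frozen after dissection, so that each array is a mixture of all cells of the block. Samples of this kind cannot tell fewer cells of a type from less RNA per cell, and this holds for every result below.

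The striatum is the input station of the basal ganglia. Nearly all its neurons are GABAergic projection neurons, which fall into a direct pathway with the dopamine D1 receptor, substance P and dynorphin, and an indirect pathway with the dopamine D2 receptor, the adenosine A2a receptor and enkephalin. Dopamine and adenosine act in these cells on adenylyl cyclase, cyclic AMP and the phosphatase inhibitor DARPP-32, whereas the frontal cortex is built mostly from glutamatergic pyramidal neurons, arranged in layers with different transcription factors, and from several classes of GABAergic interneuron.

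Values are log2 intensities after the 10 arrays had been brought to a common distribution, a difference is striatum minus frontal cortex averaged over the 5 rats, and SE is its standard error. A gene was tested if its mean over the 10 arrays reached the 40th percentile of all probe sets (log2 value 5.79), which left 10216 genes. It was called at a Benjamini-Hochberg adjusted p under 0.05 from limma and a difference of at least 1.2-fold. The array medians were close, from 89.9 to 92.5 on the linear scale in frontal cortex and from 89.0 to 91.3 in striatum. A log2 value of 3.82 was the 10th percentile of all values, and differences that reach down to that level are understated.

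The marker genes went with the region labels on every array. The mean level of 11 projection neuron markers was 7.36 to 7.88 in frontal cortex and 11.61 to 11.82 in striatum, and that of 7 pyramidal neuron markers was 9.47 to 9.65 in frontal cortex and 5.93 to 6.59 in striatum. Some arrays stood apart within their region. The 11 choroid plexus and ependyma markers averaged 8.91, 6.21, 5.69, 7.38 and 5.87 in striatum of rats 1 to 5, against 4.95 to 5.24 in frontal cortex, so that striatum of rats 1 and 4 was high. Pyramidal neuron markers were 5.93, 6.57, 6.05, 6.59 and 6.21 in the same striatum arrays, highest in rats 2 and 4. Projection neuron markers in frontal cortex were 7.59, 7.50, 7.61, 7.88 and 7.36, highest in rat 4. The 14 meningeal markers averaged 6.70, 7.04, 6.46, 7.34 and 7.14 in frontal cortex and 7.62, 6.51, 6.48, 6.93 and 6.67 in striatum, with the highest value in striatum of rat 1. Their part in the region differences was not tested beyond leaving out each rat in turn.

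**Figure D1:**
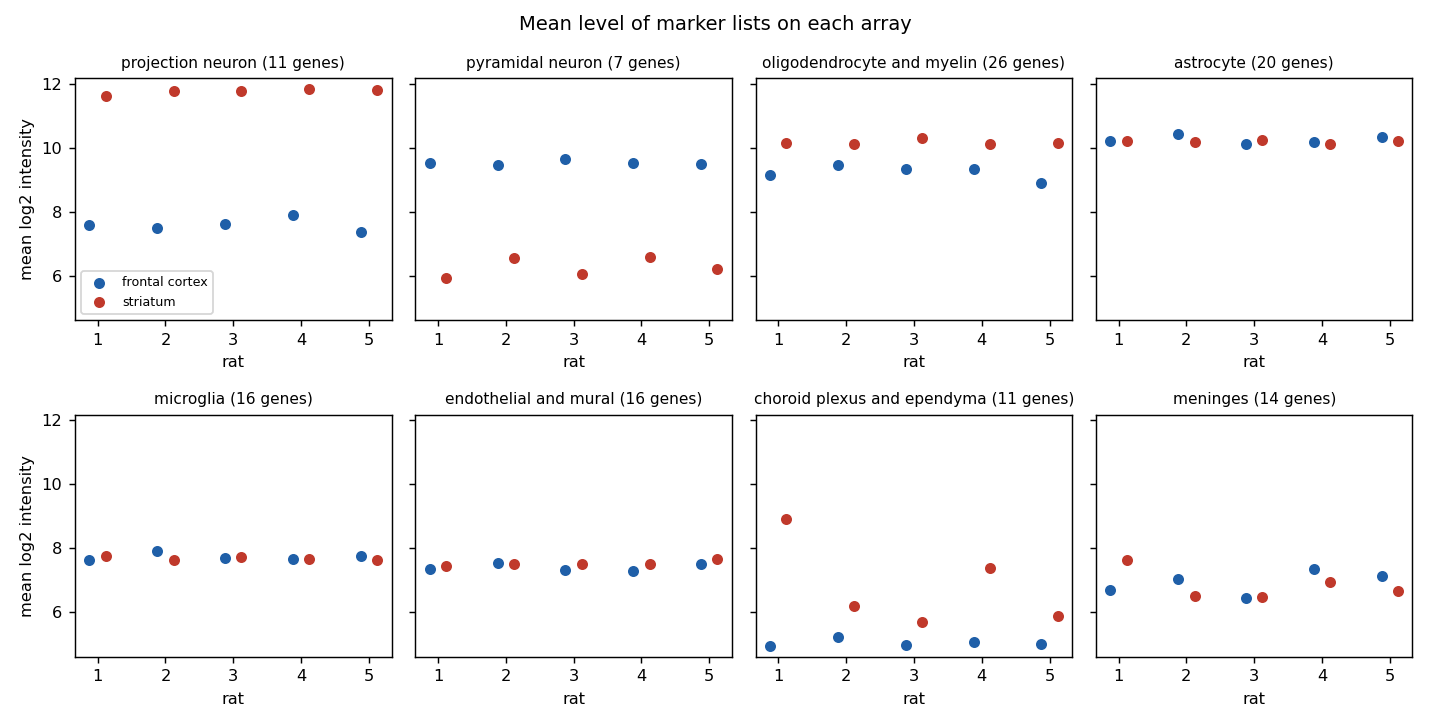
Mean log2 intensity of 8 marker lists (vertical axis) on each array of the 5 vehicle rats (horizontal axis), frontal cortex in blue and striatum in red, with the number of genes in each list. Projection neuron and pyramidal neuron markers separate the regions on every array, and choroid plexus markers stand out in striatum of rats 1 (8.91) and 4 (7.38).

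The regions differed widely. Of 10216 genes, 2355 (23.1%) were called higher in striatum and 2114 (20.7%) higher in frontal cortex. At least 2-fold differences were found for 383 genes (3.75%) higher in striatum and 478 genes (4.68%) higher in frontal cortex, and at least 8-fold differences for 39 and 42 genes. All 383 genes of the first group were higher in striatum in 5 of 5 rats, and for 381 of them the values of both regions did not overlap. Of the 478 cortical genes, 477 were lower in striatum in 5 of 5 rats, and 474 did not overlap. Nr4a2 was the exception, with a difference between -2.64 and 0.04 in single rats. The genes of both groups were called by a paired test on the same arrays, so such agreement largely follows from the choice. It is no further support, and its share over all genes was not counted. Over probe sets, 4336 were called higher in striatum and 4222 higher in frontal cortex, 50.7% on the striatal side, and on the deposited values without further normalization 3522 and 5139, or 40.7%. The median difference over all genes was 0.02 and the median size of a difference was 0.222 on the log2 scale. For 3198 genes (31.3%) the 95% interval of the difference lay within 1.2-fold in both directions.

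**Figure D2:**
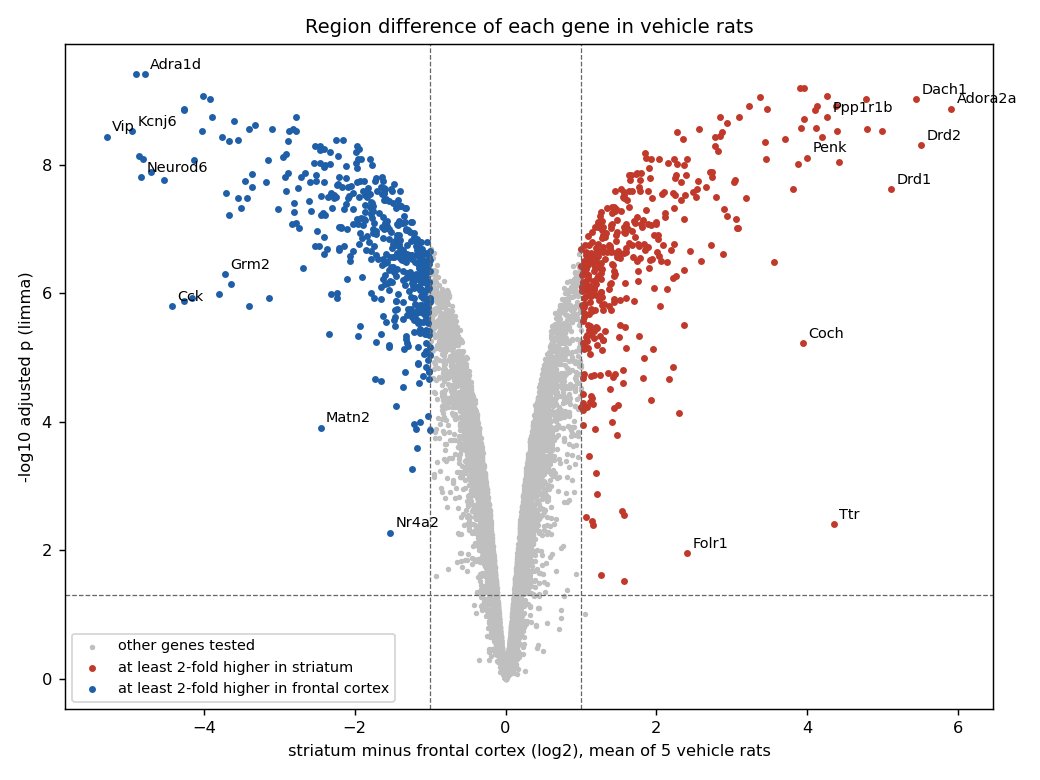
Difference between striatum and frontal cortex for each of the 10216 genes tested (horizontal axis, log2) against the adjusted p from limma (vertical axis, -log10), vehicle rats, n = 5 pairs. Dashed lines mark 2-fold and an adjusted p of 0.05, and Ttr lies low on the right because its standard error was 0.97.

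The 15 largest differences in favor of striatum held 3 receptors that mark projection neurons. Adora2a, the adenosine A2a receptor, measured 5.59, 5.39, 5.49, 6.08 and 5.28 in frontal cortex and 11.33, 11.44, 11.46, 11.61 and 11.53 in striatum, a difference of 5.91 (SE 0.10, adjusted p = 1.34e-09). Drd2, the dopamine D2 receptor, measured 5.52, 5.22, 5.26, 6.0 and 5.02 in frontal cortex and 10.70, 10.88, 10.95, 11.06 and 10.98 in striatum, a difference of 5.51 (SE 0.12, adjusted p = 4.93e-09). Drd1, the D1 receptor, measured 6.79, 6.44, 6.88, 7.44 and 6.13 in frontal cortex and 11.72, 11.87, 11.91, 11.90 and 11.86 in striatum, a difference of 5.11 (SE 0.16, adjusted p = 2.4e-08). The regions did not overlap for any of these receptors, Adora2a was 60.1-fold higher in striatum, and in frontal cortex rat 4 had the highest values of Drd1 and Drd2. Other genes among the 15 largest were Dach1, a transcriptional cofactor (5.44), Slc35d3, a sugar nucleotide transporter relative (4.99), Rgs9 (4.79), Nexn, an actin-binding protein (4.78), Nts (4.43), Slc5a7 (4.39), Tbc1d10c (4.38), Ttr (4.35), Ppp1r1b (4.27), Rasgrp2 (4.26), Rarb (4.20) and Tac1 (4.13).

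The 15 largest differences in favor of frontal cortex held interneuron and pyramidal neuron genes side by side. Vip, the vasoactive intestinal peptide of a class of cortical interneuron, measured 9.95, 9.88, 9.69, 10.05 and 10.10 in frontal cortex and 4.49, 5.10, 4.41, 4.82 and 4.42 in striatum, a difference of -5.29 (SE 0.11, adjusted p = 3.64e-09). Kcnj6, a potassium channel opened by G proteins, measured 9.51, 9.25, 9.37, 9.35 and 9.33 in frontal cortex and 4.31, 4.70, 4.12, 4.57 and 4.37 in striatum, a difference of -4.95 (SE 0.10, adjusted p = 3.01e-09). Striatal means of both lay under 4.74, the 25th percentile of all values, and no rat overlapped. After these came Tafa1, a secreted protein (-4.90), Exph5 (-4.85), Neurod6 (-4.84), Bhlhe22 (-4.80), Adra1d (-4.78), C1ql3, a secreted synaptic protein (-4.70), Nrn1 (-4.53), Cck (-4.42), Bdnf (-4.27), Car10 (-4.27), Bmper (-4.26), Slc17a7 (-4.16) and Ptpn3 (-4.14).

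**Figure D3:**
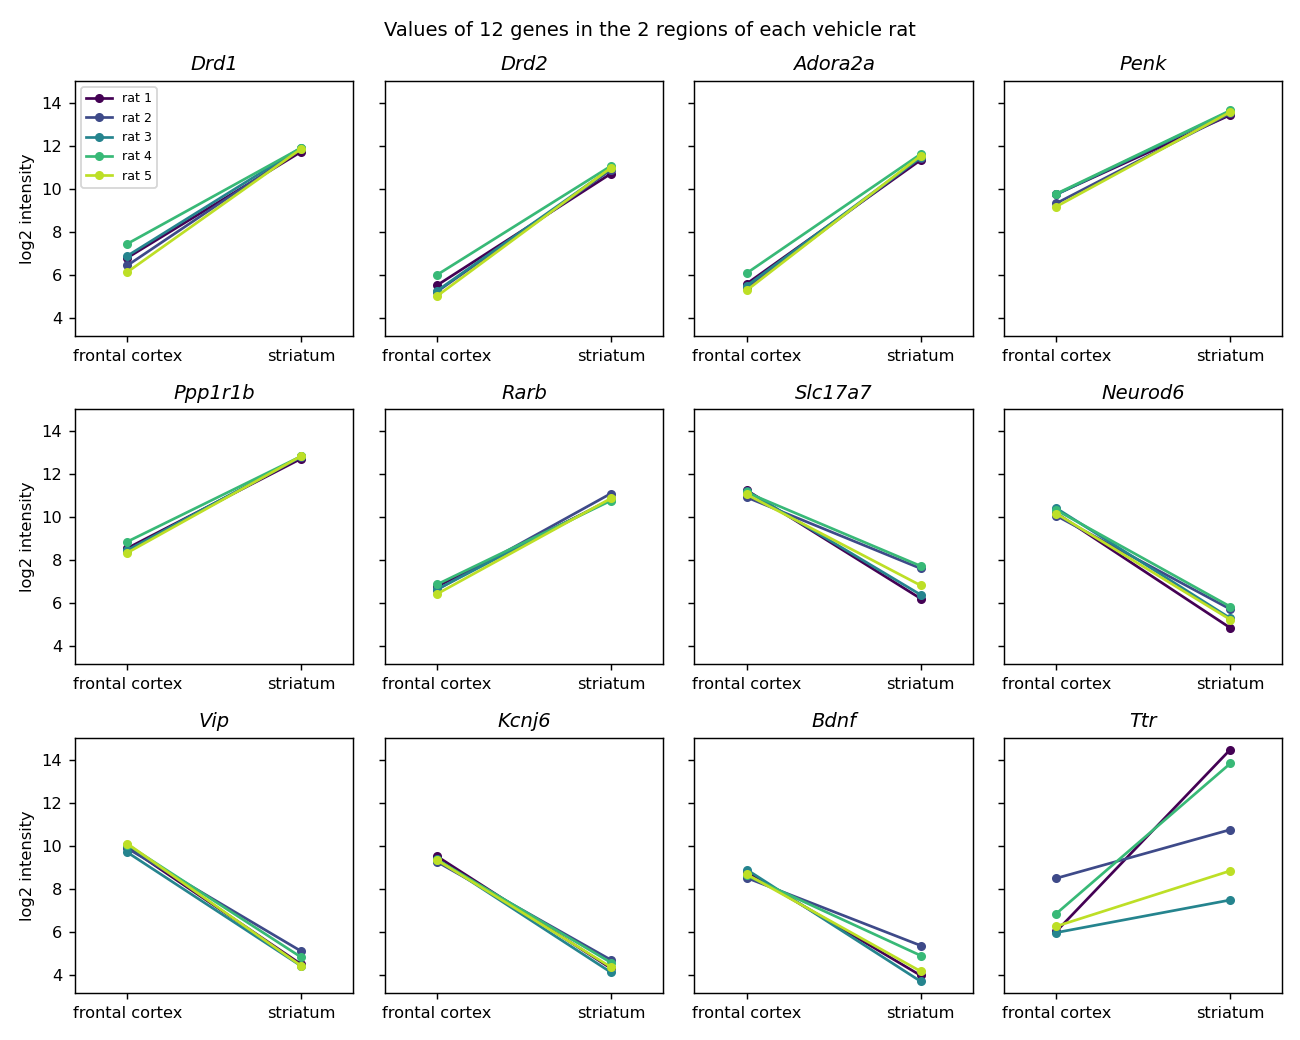
Log2 intensity (vertical axis) of 12 genes in frontal cortex and striatum, with 1 line per vehicle rat. The lines of Drd1, Drd2, Adora2a, Penk, Ppp1r1b and Rarb rise and those of Slc17a7, Neurod6, Vip, Kcnj6 and Bdnf fall in all 5 rats, and Ttr spreads from 7.48 to 14.47 in striatum.

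All 5 neuropeptides listed for projection neurons were called higher in striatum, where 23.1% of all genes were called, with a median difference of 4.00 against 0.02 over all genes. Penk, the enkephalin precursor of the indirect pathway, measured 9.75, 9.32, 9.74, 9.77 and 9.17 in frontal cortex and 13.43, 13.50, 13.60, 13.64 and 13.57 in striatum, a difference of 4.00 (SE 0.10, adjusted p = 7.77e-09). Tac1, which encodes substance P of the direct pathway, measured 7.95, 7.49, 7.98, 8.10 and 7.61 in frontal cortex and 11.84, 11.75, 12.16, 12.19 and 11.86 in striatum, a difference of 4.13 (SE 0.06, adjusted p = 1.21e-09). Pdyn, the dynorphin precursor of the same pathway, measured 8.75, 8.13, 8.49, 8.70 and 8.37 in frontal cortex and 11.34, 11.03, 11.17, 11.44 and 11.32 in striatum, a difference of 2.77 (SE 0.06, adjusted p = 5.19e-09). The regions of these 3 peptides were separate in every rat. Nts, neurotensin, ran from 3.89 to 4.47 in frontal cortex and from 8.36 to 8.57 in striatum. Cartpt, the precursor of the CART peptides, was the least different, at 1.76 (SE 0.08, adjusted p = 1.75e-07).

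Receptors for dopamine and other modulators went both ways. Of 37 on the array, 22 passed the level filter, 10 were called higher in striatum and 9 higher in frontal cortex, with a median of -0.11. Among all genes 23.1% and 20.7% were called. With no filter, 14 and 12 of all 37 were called, beside 6243 and 6074 of all 31099 probe sets. After Adora2a, Drd2 and Drd1 came Oprk1, the kappa opioid receptor that dynorphin binds, at 2.88 (SE 0.13, adjusted p = 2.48e-07), and Htr2c, the serotonin 2C receptor, at 2.52 (SE 0.08, adjusted p = 3.19e-08). Striatal Htr2c was 12.22, 11.39, 11.41, 11.50 and 11.25, highest in rat 1, where choroid plexus markers were also highest. Htr4 (2.24), Htr1d (2.09), the noradrenaline receptor Adra2c (1.71), the muscarinic receptor Chrm4 (1.39) and the cannabinoid receptor Cnr1 (0.99) were also higher in striatum.

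In the other direction stood both alpha-1 noradrenaline receptors that passed the filter. Adra1d measured 8.75, 8.92, 9.02, 9.09 and 9.27 in frontal cortex and 4.06, 4.20, 4.25, 4.23 and 4.39 in striatum, a difference of -4.78 (SE 0.05, adjusted p = 3.9e-10), and Adra1b had a difference of -3.43 (SE 0.11, adjusted p = 3.35e-08). Htr2a, the serotonin 2A receptor that many atypical antipsychotics block, measured 8.54, 8.39, 8.53, 8.57 and 8.71 in frontal cortex and 6.26, 6.08, 6.92, 6.34 and 5.96 in striatum, a difference of -2.23 (SE 0.13, adjusted p = 1.21e-06). Serotonin receptors were therefore split between the regions, Htr2c, Htr4 and Htr1d on the striatal side and Htr2a and Htr5a (-0.43) on the cortical side. Oprl1, the nociceptin receptor (-2.11), Adra2a (-1.95), and the muscarinic receptors Chrm3 (-1.59) and Chrm1 (-0.62) were higher in frontal cortex too. Adora1, the adenosine A1 receptor, had a difference of -0.08 with a 95% interval of -0.24 to 0.08. Of the other dopamine receptors, Drd3, Drd4 and Drd5 did not pass the filter, and their differences without it were -0.11 (adjusted p = 0.174), 0.02 (adjusted p = 0.864) and 0.25 (adjusted p = 0.00724). Among receptors under the filter, Htr1b had a difference of 1.29 (adjusted p = 3.18e-07), Htr1a of -1.63 (adjusted p = 3.32e-07) and Htr7 of -1.99 (adjusted p = 1.03e-08). The 3 orphan receptors on the array, listed as receptors of striatal neurons, were all called higher in striatum, beside 23.1% of all genes. Gpr6 was at 3.90, Gpr149 at 3.18 and Gpr155 at 1.43.

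Genes of cyclic AMP signaling went both ways. Of 40 on the array, 38 passed the filter, 22 were called higher in striatum and 12 higher in frontal cortex (median 0.64). Over all genes the shares were 23.1% and 20.7%. Ppp1r1b, which encodes DARPP-32, measured 8.56, 8.45, 8.47, 8.86 and 8.35 in frontal cortex and 12.72, 12.81, 12.83, 12.83 and 12.84 in striatum, a difference of 4.27 (SE 0.08, adjusted p = 1.84e-09). Among adenylyl cyclases, Adcy5 was higher in striatum by 3.10 (SE 0.05, adjusted p = 1.84e-09), whereas Adcy2 had a difference of -1.62 (SE 0.05, adjusted p = 1.78e-08). The G protein alpha subunits that couple receptors to cyclase were also of opposite sign, with Gnal at 2.87 (SE 0.06, adjusted p = 3.14e-09) and Gnas at -1.16 (SE 0.07, adjusted p = 1.76e-06). Gng7, the gamma subunit that partners Gnal in striatum, had a difference of 3.95 (SE 0.05, adjusted p = 6.49e-10).

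Phosphodiesterases, which break cyclic nucleotides down, were split as well. Pde10a measured 9.49, 9.80, 9.66, 9.70 and 9.64 in frontal cortex and 12.29, 12.53, 12.49, 12.60 and 12.62 in striatum, a difference of 2.85 (SE 0.05, adjusted p = 1.84e-09). Pde1b was also higher in striatum (3.23), as were Pde7b (1.63), Pde8b (1.04), Pde2a (0.52) and Pde4b (0.52). Pde1a (-2.21), Pde4d (-0.76) and Pde4a (-0.68) were higher in frontal cortex. Of the protein kinase A subunits, the regulatory subunit Prkar2b was higher in striatum (1.01), Prkar1b (-1.02) and Prkar2a (-0.51) were higher in frontal cortex, and the catalytic subunit Prkacb had a difference of -0.01 with an interval of -0.12 to 0.09.

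RGS proteins speed the shut-off of G proteins, and the striatal member Rgs9 measured 7.06, 7.05, 7.17, 7.54 and 6.83 in frontal cortex and 11.79, 11.97, 11.87, 11.98 and 12.01 in striatum, a difference of 4.79 (SE 0.09, adjusted p = 2.77e-09). Rgs8 (1.70) and Rgs2 (1.09) were higher in striatum, and Rgs7 (-0.81) and Rgs4 (-0.54) in frontal cortex. Ptpn5, which encodes the phosphatase STEP, and Ppp1r1a, a relative of the phosphatase inhibitor DARPP-32, had differences of 2.27 and 1.14. Arpp21 had a difference of 1.79 by its brightest probe set, but another of its probe sets went the opposite way. Ras regulators showed the same mixture, with 8 of 14 called higher in striatum and 4 higher in frontal cortex (23.1% and 20.7% of all genes). Rasgrp2, an exchange factor opened by calcium and diacylglycerol, was at 4.26 (SE 0.06, adjusted p = 8.42e-10), Rem2 at 3.91 and Rasd2, known as Rhes, at 2.78. The relative Rasd1 was at -1.94, and the exchange factor Rasgrf2 at -1.77.

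Striatum arises from the ventral and cortex from the dorsal forebrain of the embryo, and each origin has its own transcription factors. Of 19 striatal factors on the array, 14 passed the filter, 12 were called higher in striatum and 1 higher in frontal cortex (median 2.26). The shares over all genes were 23.1% and 20.7%. With no filter, 16 of 19 were called higher in striatum, beside 6243 of all 31099 probe sets. Foxp2 measured 6.70, 6.43, 6.77, 6.91 and 6.11 in frontal cortex and 9.59, 9.70, 9.81, 9.55 and 9.71 in striatum, a difference of 3.09 (SE 0.12, adjusted p = 9.83e-08). Dlx5 (2.73), Meis1 (2.72), Ebf1, a factor of direct pathway neurons (2.53), Zfp503 (2.28), Bcl11b, also called Ctip2 (2.24), Zfhx3 (1.93), Foxp1 (1.78) and Meis2 (1.60) were higher in striatum. The exceptions were Rara (-0.34), called higher in frontal cortex, and Dlx1, with a difference of -0.39 (SE 0.19, adjusted p = 0.0943), which was -0.58 and called without rat 2 and -0.20 without rat 4. Isl1, a factor of direct pathway and cholinergic neurons, fell under the filter because of its cortical level and measured 3.77, 4.00, 3.95, 3.88 and 4.06 in frontal cortex and 7.49, 7.51, 7.82, 7.74 and 7.47 in striatum, a difference of 3.67 (adjusted p = 3.51e-09) without the filter. Nkx2-1, Six3 and Sox11, under the filter too, differed by 1.80, 0.82 and 0.96.

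Of 31 factors listed for cortex on the array, 27 passed the filter, 20 were called higher in frontal cortex and 4 higher in striatum (median -1.23). Over all genes 20.7% and 23.1% were called so. Neurod6, a helix-loop-helix factor of pyramidal neurons, measured 10.19, 10.07, 10.42, 10.33 and 10.17 in frontal cortex and 4.86, 5.73, 5.31, 5.85 and 5.25 in striatum, a difference of -4.84 (SE 0.14, adjusted p = 1.58e-08). Bhlhe22, of the same protein family, had a difference of -4.80 (SE 0.12, adjusted p = 8.3e-09). Other listed factors followed, with Fezf2 of deep layers at -2.83 (SE 0.11, adjusted p = 8.48e-08), Cux2 of upper layers at -2.80 (SE 0.10, adjusted p = 5.47e-08) and Tbr1 at -2.69 (SE 0.13, adjusted p = 4.04e-07). Nr2f1 was at -2.45, Satb1 at -2.41, Emx1 at -2.40, Mef2c at -1.97 and Neurod2 at -1.85. The 4 listed factors that went the other way were Pou3f1 (1.21), Tle4 (1.16), Lmo3 (0.96) and Cux1 (0.52). Thus Cux1 and Cux2, both used as upper layer markers, had differences of opposite sign. Neurod1 fell under the filter and measured 7.48, 7.48, 7.61, 7.65 and 7.87 in frontal cortex and 3.42, 3.62, 3.43, 3.64 and 3.45 in striatum, a difference of -4.10 (adjusted p = 2.15e-09) without it.

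Cyclic AMP acts on transcription through CREB, which binds the palindrome TGACGTCA or its shorter core TGACG. RefSeq promoter windows of assembly GRCr8, 250 bases before to 50 bases after the start of a gene, were matched by symbol for 8550 of the 10216 genes tested. The palindrome was in 282 of these windows (3.3%), in 2 of 291 windows (0.687%) of the genes at least 2-fold higher in striatum and in 7 of 381 windows (1.84%) of those 2-fold higher in frontal cortex. Over all 27457 windows of the table it was in 525 (1.91%). The core, searched on both strands and overlapping the palindrome, was in 32.6% of the windows of tested genes, 21.0% of the striatal and 24.7% of the cortical ones. The striatal windows with the palindrome were those of Cartpt and Gpr6, and Neurod6, Hs3st2 and Syn1 were among the cortical ones, named after the search. A window without these letters says nothing of sites elsewhere. The windows of Tac1, Vip and Neurod6 are printed as examples of genes with large differences that hold the core, which is in capitals. Nts, not printed, holds the core 171 bases before its start. The windows of Pdyn, Drd1, Drd2, Rgs9, Rarb, Bdnf, Slc17a7 and Adcyap1, looked at in the same way, do not hold it.
Tac1 (chr4:36645333-36645632, plus strand, core 206 bases before the start): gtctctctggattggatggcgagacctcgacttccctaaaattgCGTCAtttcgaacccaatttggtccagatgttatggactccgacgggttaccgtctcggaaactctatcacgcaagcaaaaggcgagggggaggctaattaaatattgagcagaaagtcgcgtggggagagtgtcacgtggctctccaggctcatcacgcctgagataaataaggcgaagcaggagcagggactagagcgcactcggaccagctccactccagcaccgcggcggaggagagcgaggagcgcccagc
Vip (chr1:44470230-44470529, plus strand, core 97 bases before the start): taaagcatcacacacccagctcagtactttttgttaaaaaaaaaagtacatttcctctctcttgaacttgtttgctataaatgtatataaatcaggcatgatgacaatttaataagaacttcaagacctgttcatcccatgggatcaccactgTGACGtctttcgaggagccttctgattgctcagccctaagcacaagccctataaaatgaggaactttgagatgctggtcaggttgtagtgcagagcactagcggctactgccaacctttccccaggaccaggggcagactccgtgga
Neurod6 (chr4:86180106-86180405, minus strand, palindrome 53 bases before the start): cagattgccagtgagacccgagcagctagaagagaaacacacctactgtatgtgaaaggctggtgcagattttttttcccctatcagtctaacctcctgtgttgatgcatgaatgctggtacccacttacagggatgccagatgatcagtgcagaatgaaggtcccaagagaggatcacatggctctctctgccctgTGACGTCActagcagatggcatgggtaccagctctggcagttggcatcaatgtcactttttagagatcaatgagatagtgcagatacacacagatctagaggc
The Tac1 core lies on the opposite strand and reads as CGTCA, and the Neurod6 window is the only one of the 3 with the whole palindrome.

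Retinoic acid, made from vitamin A, acts on nuclear receptors that are rich in striatum. The receptor Rarb measured 6.79, 6.64, 6.65, 6.88 and 6.44 in frontal cortex and 10.81, 11.10, 10.84, 10.77 and 10.88 in striatum, a difference of 4.20 (SE 0.09, adjusted p = 3.64e-09), and its partner Rxrg had a difference of 4.11 (SE 0.08, adjusted p = 2.7e-09). The binding proteins Crabp1 (2.84), Rbp4 (2.00) and Crabp2 (1.41) and the synthesis enzyme Rdh10 (1.40) were higher in striatum. Cyp26b1, the enzyme that degrades retinoic acid, measured 8.77, 8.80, 8.72, 9.07 and 8.45 in frontal cortex and 5.77, 5.27, 5.38, 5.32 and 5.30 in striatum, a difference of -3.36 (SE 0.10, adjusted p = 2.19e-08). Rarb and Rxrg were higher and Cyp26b1 lower in striatum in all 5 rats, whereas another receptor, Rara, was called higher in frontal cortex (-0.34). The enzymes Aldh1a1 (-0.87) and Aldh1a2 (-0.90), which complete the synthesis, were higher in frontal cortex. In all, 8 of 14 retinoid genes were called higher in striatum and 4 higher in frontal cortex (median 0.32), beside 23.1% and 20.7% of all genes.

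Cholinergic interneurons are a small population of striatum and release its acetylcholine. Slc5a7, the choline transporter, measured 4.68, 4.56, 4.79, 5.00 and 4.61 in frontal cortex and 8.91, 9.00, 9.03, 9.22 and 9.41 in striatum, a difference of 4.39 (SE 0.09, adjusted p = 3.01e-09). Chat, the enzyme that makes acetylcholine, was at 2.49 (SE 0.08, adjusted p = 2.71e-08) and Slc10a4, a vesicle protein of these cells, at 1.92. Slc18a3, the vesicle transporter of acetylcholine, was under the filter, with a difference of 1.45 (adjusted p = 4.33e-07). Tacr1, a substance P receptor of these interneurons, was at 0.61, whereas Tacr3, its neurokinin B relative, was at -2.06 (SE 0.10, adjusted p = 2.61e-07).

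GABA genes and interneuron peptides were divided. The synthesis enzymes Gad1 (1.10) and Gad2 (1.79) and the vesicle transporter Slc32a1 (2.10, SE 0.07, adjusted p = 2.63e-08) were higher in striatum, as was the calcium buffer Calb1 (0.77). Pvalb, the parvalbumin of fast-spiking interneurons, measured 10.23, 9.72, 10.12, 10.17 and 10.13 in frontal cortex and 8.06, 6.70, 8.33, 8.23 and 7.34 in striatum, a difference of -2.34 (SE 0.17, adjusted p = 4.37e-06). Kcnc2 (-2.88) and Kcnc1 (-1.02), potassium channels of the same cells, were higher in frontal cortex, and so was somatostatin, Sst (-0.75). Npy, neuropeptide Y, had a difference of 0.08 with an interval of -0.08 to 0.24. Crh fell under the filter, with a difference of -3.63 (adjusted p = 8.8e-10) without it. In all, 8 of 18 genes were called higher in striatum and 6 higher in frontal cortex, beside 23.1% and 20.7% of all genes.

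Most pyramidal neuron genes were lower in striatum. Of 28 on the array, all of which passed the filter, 23 were called higher in frontal cortex and 0 higher in striatum (median -2.14). Over all genes limma called 20.7% and 23.1% so. At an unadjusted p under 0.05 from limma, 24 of the 28 were higher in frontal cortex and 0 higher in striatum. Slc17a7, the vesicular glutamate transporter VGLUT1, measured 11.26, 10.93, 11.23, 11.15 and 11.06 in frontal cortex and 6.23, 7.62, 6.40, 7.74 and 6.84 in striatum, a difference of -4.16 (SE 0.25, adjusted p = 1.18e-06). Cck, cholecystokinin, measured 12.99, 12.88, 13.16, 13.02 and 13.02 in frontal cortex and 7.90, 9.37, 7.77, 9.53 and 8.40 in striatum, a difference of -4.42 (SE 0.28, adjusted p = 1.58e-06). Striatum of rats 2 and 4 had the highest values of both, and these were the arrays with the highest pyramidal marker mean. Nrn1, neuritin (-4.53), Hs3st2, a heparan sulfate enzyme (-3.80), Stx1a, a vesicle fusion protein (-3.66), the pentraxins Nptx1 (-3.40) and Nptxr (-3.66), and the zinc transporter Slc30a3 (-3.55) followed. The 5 not called were Ptk2b (0.14), Egr4 (0.10), Itpka (-0.08), Crym (-0.16) and Lamp5 (-0.24), of which Crym and Lamp5 were called when the arrays were only centered (-0.28 and -0.35).

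**Figure D4:**
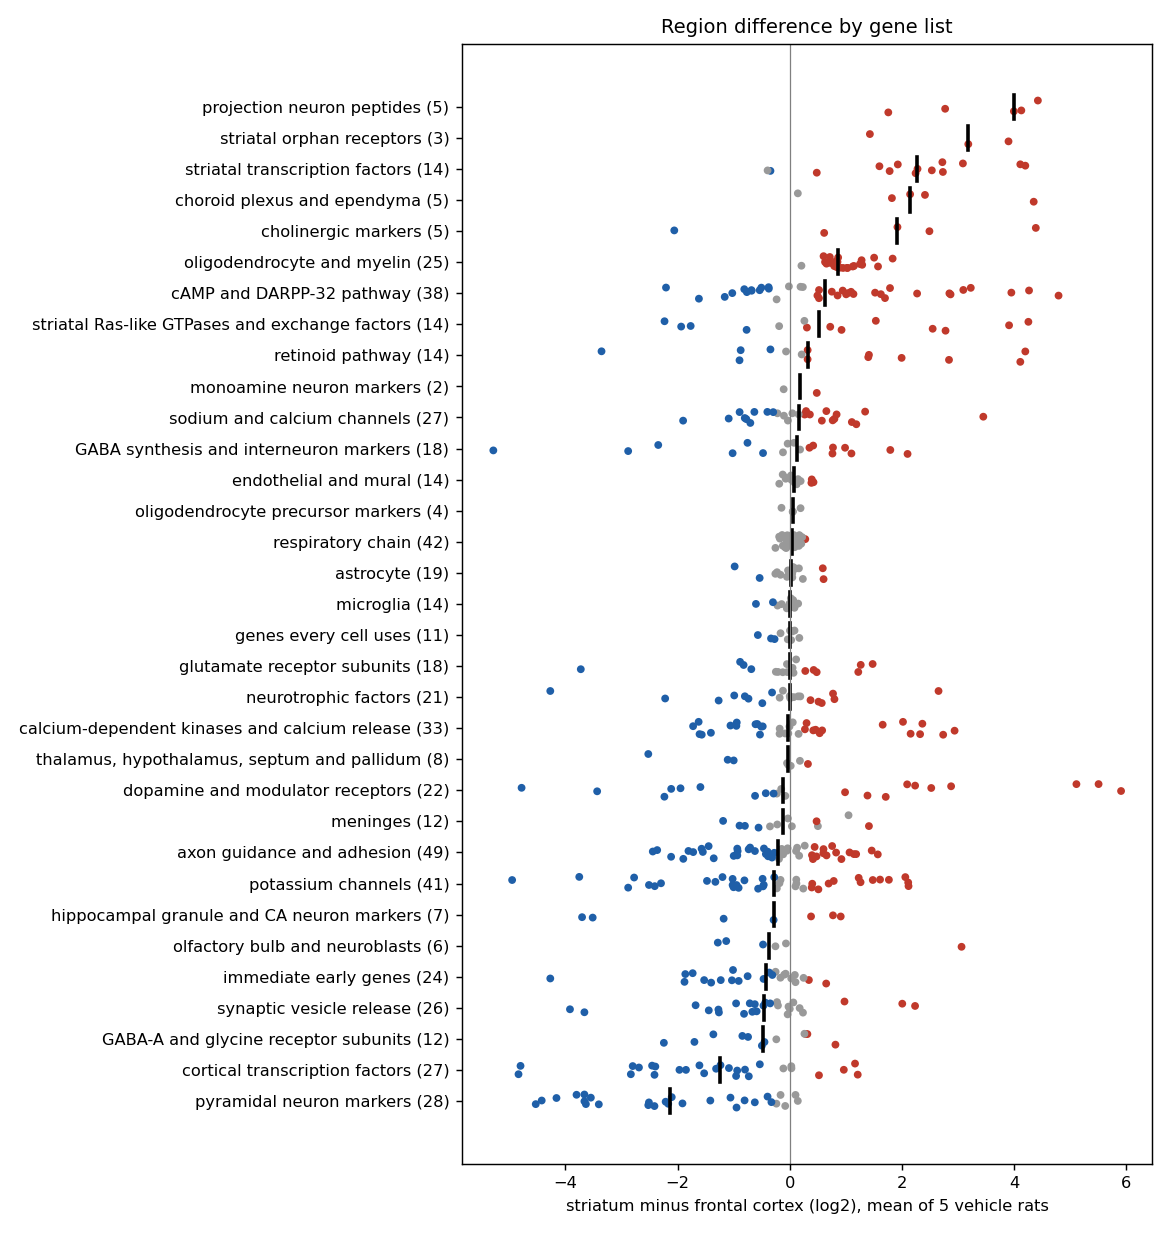
Difference between striatum and frontal cortex (horizontal axis, log2, mean of 5 vehicle rats) for each tested gene of 33 lists, with the number tested in parentheses. Red and blue points are called higher in striatum and in frontal cortex, gray points are not called, and black bars are medians, which run from -2.14 for pyramidal neuron markers to 4.00 for projection neuron peptides.

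Receptors of the fast transmitters were called in both directions. For these and the channel lists that follow, the shares over all genes were 23.1% higher in striatum and 20.7% higher in frontal cortex, and the glutamate receptor counts were near them. Of 18 glutamate receptor genes, 6 were called higher in striatum and 4 higher in frontal cortex, and the median was 0.00. Grm2, a presynaptic metabotropic receptor, measured 7.03, 8.66, 8.83, 8.66 and 8.83 in frontal cortex and 4.36, 4.77, 4.59, 4.70 and 4.95 in striatum, a difference of -3.73 (SE 0.19, adjusted p = 5.03e-07). Grm4 (1.48), the kainate subunit Grik2 (1.27) and Grm5 (1.22) were higher in striatum. The common subunits Gria2 (0.07, interval -0.04 to 0.18) and Grin1 (-0.05, interval -0.17 to 0.07) were close to equal. Of 12 inhibitory receptor genes, 7 were called higher in frontal cortex, led by the GABA-B subunit Gabbr2 (-2.24, SE 0.05, adjusted p = 4.15e-09), Gabra5 (-1.70) and Gabra3 (-1.36). Gabra4 was higher in striatum (0.82), and Gabbr1 had probe sets that went both ways, the brightest at 0.31 and no longer called when the arrays were only centered (0.20).

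Potassium channels, which set how a neuron fires, were also called in both directions. Of 41, 13 were called higher in striatum and 21 higher in frontal cortex (median -0.28). Kcna4 (2.12), Kcna5 (2.11), Kcnab1 (2.06), Kcnk2 (1.77) and Kcnip2 (1.61) were the largest on the striatal side. The 3 listed channels opened by G proteins were on the other side, with Kcnj6 at -4.95, Kcnj3 at -2.51 (SE 0.07, adjusted p = 1.81e-08) and Kcnj9 at -2.30 (SE 0.08, adjusted p = 4.72e-08), named after their values were seen. Kcns3, a modifier subunit of fast-spiking interneurons, measured 8.26, 7.62, 8.09, 8.20 and 8.05 in frontal cortex and 4.42, 4.24, 4.22, 4.46 and 4.13 in striatum, a difference of -3.75 (SE 0.08, adjusted p = 3.7e-09). Of 27 sodium and calcium channel genes, 13 were called higher in striatum and 9 higher in frontal cortex. Scn4b, a sodium channel beta subunit, measured 9.32, 9.10, 9.28, 9.77 and 9.14 in frontal cortex and 12.60, 12.73, 12.79, 12.90 and 12.84 in striatum, a difference of 3.45 (SE 0.08, adjusted p = 8.07e-09), and Cacna1g, a T-type calcium channel, was at -1.90 (SE 0.10, adjusted p = 5.52e-07).

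Calcium signaling genes were called in equal numbers, 13 higher in striatum and 13 higher in frontal cortex of 33 (23.1% and 20.7% of all genes). The calcium release channel Ryr3 was at 2.94 (SE 0.11, adjusted p = 6.37e-08), and its relatives Ryr2 and Ryr1 at -0.95 and -0.61. Strn, striatin (2.74), Dgkb, a diacylglycerol kinase (2.16), and Pcp4, a calmodulin regulator (2.02), were higher in striatum. The calmodulin kinase subunits differed in sign, Camk2b at 0.58 and Camk2a, Camk2d and Camk2g at -1.06, -1.41 and -1.61. The signs of these 4 subunits were the same in 5 of 5 rats.

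Vesicle release genes were mostly higher in frontal cortex, 15 of 26 against 3 called higher in striatum (median -0.45), where 20.7% and 23.1% of all genes were called. The synaptotagmin Syt17 was at -3.92 (SE 0.06, adjusted p = 9.52e-10), the synapsins Syn1 and Syn2 at -1.68 and -1.27 and synaptophysin, Syp, at -1.44. Unc13c (2.24), Syt6 (2.01) and Synpr, synaptoporin (0.98), were called higher in striatum. Of 49 genes of axon guidance and adhesion, 15 were called higher in striatum and 23 higher in frontal cortex, beside 23.1% and 20.7% of all genes. Ntn1, netrin 1 (1.57), and the cadherin Cdh8 (1.46) led the first group, and Sema3c (-2.44), Cdh12 (-2.36) and Ephb6 (-2.12) the second.

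Among growth factors the widest gap was that of Bdnf. Bdnf, the brain-derived neurotrophic factor that cortical neurons send to striatum, measured 8.77, 8.51, 8.89, 8.62 and 8.67 in frontal cortex and 3.98, 5.36, 3.70, 4.90 and 4.17 in striatum, a difference of -4.27 (SE 0.26, adjusted p = 1.34e-06). Its striatal values were highest in rats 2 and 4, as for Slc17a7 and Cck. The receptor Ntrk2, which binds it, had a difference of 0.01 with an interval of -0.12 to 0.13. Tgfa, a ligand of the EGF receptor, measured 6.82, 7.0, 6.81, 6.82 and 6.47 in frontal cortex and 9.30, 9.47, 9.72, 9.36 and 9.35 in striatum, a difference of 2.65 (SE 0.08, adjusted p = 2.24e-08). Of 21 genes of this kind, 6 were called higher in striatum and 8 higher in frontal cortex, beside 23.1% and 20.7% of all genes.

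Most immediate early genes, which neuronal activity induces, were lower in striatum. Of 24, 14 were called higher in frontal cortex and 2, Per1 (0.65) and Sik1 (0.34), higher in striatum (median -0.42). Over all genes the shares were 20.7% and 23.1%. Fos measured 9.08, 8.58, 9.38, 8.79 and 9.39 in frontal cortex and 7.50, 7.47, 7.92, 6.52 and 7.15 in striatum, a difference of -1.73 (SE 0.16, adjusted p = 2.17e-05). Klf6 (-1.88), Ptgs2 (-1.86), Nr4a2 (-1.53) and Ier5 (-1.40) were lower in striatum as well. Egr1 (-0.17, SE 0.08, adjusted p = 0.089, and -0.28 and called with the arrays only centered), Nr4a1 (0.03, SE 0.06, adjusted p = 0.704) and Homer1 (-0.07, SE 0.05, adjusted p = 0.2) were not called.

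Oligodendrocyte genes were higher in striatum, through which myelinated fiber bundles pass. Of 25 that passed the filter of 26 on the array, 24 were called higher in striatum and 0 higher in frontal cortex (median 0.86). Over all genes limma called 23.1% and 20.7% so. At an unadjusted p under 0.05 from limma, 25 were higher in striatum and 0 higher in frontal cortex. Mag, a myelin adhesion protein, measured 8.97, 9.25, 9.21, 9.17 and 8.61 in frontal cortex and 10.20, 10.20, 10.46, 10.18 and 10.43 in striatum, a difference of 1.25 (SE 0.11, adjusted p = 1.89e-05). Mog was at 1.15 (SE 0.12, adjusted p = 4.33e-05) and Cnp at 0.95 (SE 0.10, adjusted p = 4.37e-05). The differences were moderate beside those of neuronal genes, with Klk6 (1.84) and Enpp2 (1.57, SE 0.33, adjusted p = 0.00287) at the top. Enpp2, which choroid plexus also makes, measured 13.60, 11.30, 11.48, 12.34 and 11.13 in striatum and was highest in rats 1 and 4. Mbp, myelin basic protein, was not called by its brightest probe set (0.21, SE 0.06, adjusted p = 0.0156). That probe set was called without rat 2 (0.27), with the arrays only centered (0.30) and on the deposited values (0.29). It sat near the top of the scale with a value of 14.14 on 5 arrays. The other probe sets of Mbp were called (0.86 and 0.70). The 4 precursor genes had differences from -0.15 to 0.19 and 0 were called by limma, with 0 at an unadjusted p under 0.05.

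Of all genes, 43.7% were called in either direction, against 4 of 19 astrocyte genes, 2 of 14 microglial genes and 3 of 14 vessel genes. Of 19 astrocyte genes, 15 were not called, among them Gfap (0.06, interval -0.14 to 0.26) and Aqp4 (0.05, interval -0.14 to 0.25). Slc4a4 (0.59) and Id3 (0.60) were called higher in striatum and Gjb6 (-0.98) and Glul (-0.54) higher in frontal cortex. Of 14 microglial genes, Lyz2 (-0.60) and P2ry12 (-0.30, a call lost without rat 2, at -0.24) were called higher in frontal cortex and the other 12, Cx3cr1 (0.15) and Csf1r (-0.03) included, were not called. In frontal cortex the microglial mean was highest in rat 2, 7.62, 7.92, 7.70, 7.67 and 7.76. Of 14 vessel genes, Tagln (0.42), Slc2a1 (0.39, and 0.26 and not called on the deposited values) and Rgs5 (0.39) were called higher in striatum, and none of these 3 passed when the 1.2-fold threshold was part of the statistic (adjusted p = 0.104, 0.0819 and 0.0854). Of 42 genes of the respiratory chain, 41 were not called, and the range over all of them was -0.25 to 0.28. The exception was Ndufb10 (0.28), whose call was lost without rat 1 (0.24) or rat 2 (0.26) and when the arrays were only centered (0.15). Of 11 genes that every cell uses, 8 were not called, with Gapdh at -0.16 (-0.29 and called when the arrays were only centered) and Hprt1, called higher in frontal cortex, at -0.57.

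Genes of choroid plexus and ependyma had the widest spread between rats of the 33 lists, with a median SD of the difference of 0.77 against 0.121 over all genes. Ttr, transthyretin, measured 6.02, 8.49, 5.97, 6.85 and 6.26 in frontal cortex and 14.47, 10.74, 7.48, 13.82 and 8.83 in striatum, a difference of 4.35 (SE 0.97, adjusted p = 0.00391). Folr1 was at 2.41 (SE 0.66, adjusted p = 0.0111), with striatal values of 10.56, 6.25, 5.92, 7.60 and 5.72. Without rat 1, Folr1 and Cfap300 fell under the level filter and were not tested, with mean differences of 1.51 and 1.11 over the other 4 rats. Of 11 on the array, 5 passed the filter and 4 were called higher in striatum, a count that ran from 3 to 5 as each rat was left out. Of all genes, 23.1% were called higher there. Msx1 (1.57, SE 0.54, adjusted p = 0.0302), Mdk (1.27, SE 0.41, adjusted p = 0.024) and Cfap300 (1.55, SE 0.32, adjusted p = 0.00248), which are in no list, had among the widest spreads between rats of all 2-fold genes and were named for that reason. Striatal Msx1 was 10.31, 6.40, 6.47, 7.24 and 6.28. Rats 1 and 4 were high in these genes, as in the marker mean. Without both rats the differences were 2.11 for Ttr, 0.62 for Msx1, 0.41 for Mdk, 0.91 for Enpp2 and 0.11 for Igf2, and without rat 1 alone Msx1 was at 0.80 and Mdk at 0.74. The calls of Msx1 (adjusted p = 0.0608) and Mdk (adjusted p = 0.072) were lost without rat 4. Of 12 meningeal genes tested, 2 were called higher in striatum and 4 higher in frontal cortex (median -0.13), beside 23.1% and 20.7% of all genes. Among them, Igf2 measured 11.40, 7.83, 7.66, 9.29 and 8.06 in striatum and was not called (1.05, SE 0.51, adjusted p = 0.099). It was at 0.35 without rat 1.

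Genes of neighboring tissue were measured too. Monoamine neurons have their cell bodies in the brain stem, and of 9 of their genes on the array, 2 passed the filter, with Ddc at 0.48 and Slc18a2 at -0.11. The dopamine synthesis gene Th, under the filter, had a difference of -0.65 (adjusted p = 1.13e-04). Migrating neuroblasts run beside striatum. Of 12 genes of olfactory bulb and neuroblasts on the array, 6 passed the filter (median -0.37). Pcp4l1 (3.06), which striatal neurons carry too, was the 1 called higher in striatum, and 3 were called higher in frontal cortex. Over all genes 23.1% and 20.7% were called. With no filter, 4 and 6 of the 12 were called, Igfbpl1 at 3.40 (adjusted p = 3.15e-07) among the first. Of all 31099 probe sets, 6243 and 6074 were called without the filter. Of 19 genes of thalamus, hypothalamus, septum and pallidum on the array, 8 passed the filter (median -0.04). Tcf7l2 (0.33) was the 1 called higher in striatum, though not without rat 5 (0.26), and 3 were called higher in frontal cortex, down to -2.52. The shares over all genes tested were again 23.1% and 20.7%. With no filter, 7 and 5 of the 19 were called, Tnnt1 at 2.68 (adjusted p = 1.25e-07) among the first, beside the same 6243 and 6074 of 31099 probe sets. The part of neighboring tissue in these values was not tested.

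Hippocampus of the same 5 rats gives a further level, set on a scale common to all 45 arrays. For 320 of the 383 genes 2-fold higher in striatum the hippocampal mean was nearer to frontal cortex, and for 336 of the 478 genes 2-fold higher in frontal cortex it was nearer to frontal cortex too. The share over all genes was not counted. Both groups were chosen by the gap between the same striatum and frontal cortex arrays, so these counts do not measure how alike the regions are. Drd2 had means of 4.92 in hippocampus, 5.50 in frontal cortex and 10.99 in striatum. Slc17a7 had means of 11.64, 11.20 and 7.05 in the same order. Pdyn, which hippocampal granule neurons make, was intermediate at 10.14, 8.57 and 11.34. Htr2a was lowest in hippocampus, at 5.69, 8.63 and 6.40.

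The same comparison was made in the 10 rats that received drugs, each treatment on its own arrays. In haloperidol rats 324 of 10268 genes (3.16%) were at least 2-fold higher in striatum and 373 (3.63%) in frontal cortex, and in risperidone rats 302 of 10265 (2.94%) and 374 (3.64%). Of the 383 vehicle genes 2-fold higher in striatum, 305 (79.6%) were 2-fold higher again in haloperidol rats and 272 (71.0%) in risperidone rats. Of the 478 cortical genes, 365 (76.4%) and 348 (72.8%) were. Every one that passed the filter there had the same sign, 377 and 474 in haloperidol rats and 378 and 475 in risperidone rats. The median difference of the striatal genes was 1.48 in vehicle, 1.33 in haloperidol and 1.26 in risperidone rats, and that of the cortical genes was -1.50, -1.29 and -1.23. These genes were chosen for being 2-fold different in vehicle rats, a choice that by itself favors smaller values in other animals.

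The genes given here kept their direction in the drug-treated rats. Drd2 differed by 5.51, 5.48 and 4.94 in vehicle, haloperidol and risperidone rats, and Penk by 4.00, 4.23 and 3.66. Tac1 differed by 4.13, 3.69 and 2.92. Over the 28 pyramidal neuron genes the median difference was -2.14, -1.92 and -1.80, and over the 5 peptides of projection neurons 4.00, 3.69 and 2.92. Of the 28 genes, 24 differed less than in vehicle rats in each drug group. Of the 5 peptides, only 2 differed less in haloperidol rats, and 4 did in risperidone rats. Slc17a7 at -4.16, -2.53 and -2.72 and Cck at -4.42, -3.03 and -3.36 were named for their gap. Pbx3, a partner of Meis factors, differed by 2.82, 2.09 and 0.97. Pyramidal neuron markers in striatum averaged 5.93 to 6.59 over vehicle rats (median 6.21), 6.35 to 7.68 over haloperidol rats (median 6.83) and 6.08 to 8.48 over risperidone rats (median 6.62). Projection neuron markers in striatum averaged 11.6 to 11.8, 11.4 to 11.7 and 10.8 to 11.8 in vehicle, haloperidol and risperidone rats. Their medians in frontal cortex were 7.59, 7.61 and 7.75, with a range of 7.51 to 8.42 in risperidone rats. The part of either marker set in these gaps, and whether the region difference depends on treatment, was not tested.

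**Figure D5:**
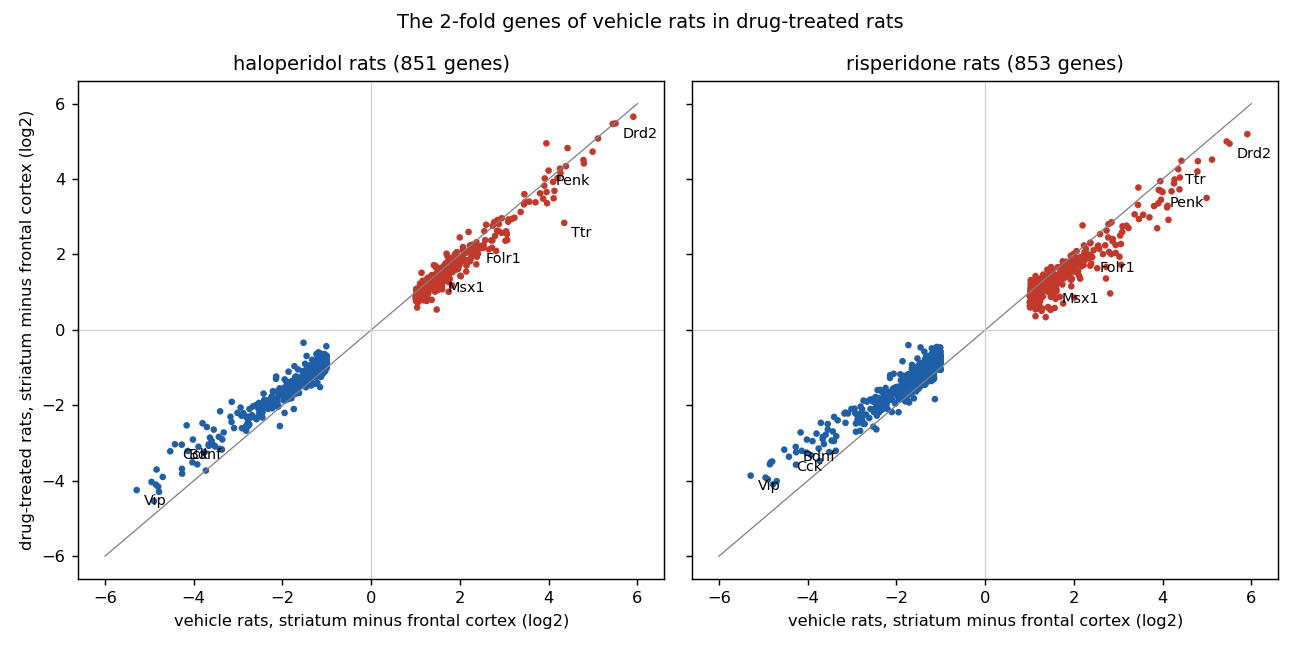
Difference between striatum and frontal cortex (log2) in vehicle rats (horizontal axis) against the same difference in haloperidol rats (left) and risperidone rats (right), for genes at least 2-fold different in vehicle rats, with a line of equal size. All points lie on the same side of 0 in both groups, Drd2 lies near the line in haloperidol rats (5.51 against 5.48), and Cck lies off it in both (-4.42 against -3.03 and -3.36).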

How the data were processed

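RNA of striatum and frontal cortex from 5 vehicle-treated rats was measured on 10 arrays of a series of 45. The deposited values are linear intensities that the authors made with Robust Multi-array Average (RMA) in R 2.7.2, a background correction, between-array normalization and summary over probes. The sources used here do not say whether all regions were normalized together. Arrays have no read depth, and the 5 rats per region limit the precision.

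Log2 intensities were quantile normalized over the 10 arrays. Of 31099 probe sets, 18659 with a mean at or above the 40th percentile were fitted in limma 3.58.1 under R 4.3.3 (with the data.table package, version 1.17.8), with region and rat as terms and moderated statistics on 8.43 degrees of freedom. Tests were two-sided, adjusted by Benjamini-Hochberg over all 18659, with calls made under 0.05 for differences of 1.2-fold or more, as in the study's methods. The labels give the same animal number to both regions of a rat, and deviations from the region mean were correlated between both regions of a rat (0.185 to 0.416), in each rat above its highest value with another rat (0.0475 to 0.252), so the rat was kept as a block.

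Of the kept probe sets, 14076 carry 1 gene, 306 several and 4277 none in the platform annotation. Each of 10216 genes is shown by its probe set with the highest mean. Genes were named as the 15 largest differences in each direction, members of the lists on peptides, receptors, cyclic AMP and transcription factors, and up to 5 called members and the first 3 genes of each other list, with other names chosen after values were seen. The comparison and the 33 lists were chosen with earlier results of these data known. Drug-treated rats were fitted on their own arrays. The method was tested on simulated data.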

Additional observations from a re-analysis of the deposited data

Results flagged for a closer look

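A single array far from the other 4 of its region was looked for in 502 sets of 5 values, the named genes and the marker means in each region, and 29 (5.78%) held one. Chance gives about 1 in 20 for independent sets not chosen by their values. Some genes here were named for their spread between rats, and marker means hold named genes, so that rate cannot be set against this share. Of the 29, 11 concerned striatum of rat 1.

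In striatum of rat 1, Msx1 (10.31, median of the others 6.44), Cfap300 (8.45 against 6.29), Htr2c (12.22 against 11.40), Lyz2 (10.36 against 9.24) and Cyp26b1 (5.77 against 5.31) were high. On the same array the projection neuron marker mean (11.61 against 11.79), Drd1 (11.72 against 11.88), Ppp1r1b (12.72 against 12.83), Pde1b (12.33 against 12.48), Chrm4 (7.76 against 8.12) and Mbp (14.04 against 14.14) were low. The choroid plexus marker mean of that array was 8.91, and its part in these values was not tested.

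In the other striatum arrays, Fezf2 was high (6.11 against 5.65) and Rgs2 low (10.97 against 11.11) in rat 2, Grm5 low (9.62 against 10.35) and the myelin marker mean high (10.31 against 10.13) in rat 3, Car10 high (6.53 against 6.18) in rat 4 and the vessel marker mean high (7.67 against 7.50) in rat 5.

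In frontal cortex, Grm2 was low in rat 1 (7.03 against 8.75). Rat 2 was low in Gabra4 (8.30 against 8.59), Gnal (7.76 against 7.98), Lamp5 (11.47 against 11.74) and Pvalb (9.72 against 10.15) and high in Pde4d (9.01 against 8.89). Rat 3 was low in Grm5 (8.36 against 9.13) and high in Rasgrf2 (8.61 against 8.36). Rgs8 was high in rat 4 (6.83 against 6.71), and in rat 5 Klk6 (6.35 against 7.54), Syt6 (5.69 against 6.22) and Tnnt1 (3.48 against 3.55) were low. No named gene had one direction in all vehicle rats and the opposite in all rats of a drug group.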

How the results depend on the processing

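No call at 1.2-fold over all probe sets was reversed under any alternative run, and of the 1664 probe sets called at least 2-fold, 1558 to 1664 were called so again under each alternative other than the stricter filter (1028) and limma's treat, which tests against the fold threshold itself (1063 against 2-fold; 1661 of the 1664 passed against 1.2-fold). A filter at the 60th percentile tested fewer probe sets and left 2847 higher in striatum and 2794 higher in frontal cortex at 1.2-fold, and 464 and 564 at 2-fold. Testing against a 1.2-fold difference left 2568 and 2767, and against a 2-fold difference 477 and 586. Leaving out each rat in turn gave 4274 to 4368 and 4142 to 4278 at 1.2-fold, and 730 to 789 and 882 to 940 at 2-fold. In haloperidol rats, where 616 and 692 probe sets were called at 2-fold, it gave 578 to 648 and 649 to 755, and in risperidone rats (573 and 663) 536 to 654 and 609 to 772. Without rats 1 and 4, an alternative chosen after the data were seen, 793 and 887 were called at 2-fold.

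With no replicate block, 4243 probe sets were higher in striatum and 4161 higher in frontal cortex, against 4336 and 4222 with it, and 759 and 903 at 2-fold, and with the rat as a random replicate block (correlation 0.211) 4301 and 4195. Among the named genes, dropping the block changed only the call of Msx1 (adjusted p = 0.0502), and a random block over all 45 arrays those of Igf2 (called, adjusted p = 0.047) and P2ry12 (lost, adjusted p = 0.0556). Of 221 named genes with a test, 198 were called. On ordinary statistics, 8 of these calls were lost, those of Ttr (adjusted p = 0.0602), Folr1 (adjusted p = 0.0976), Enpp2 (adjusted p = 0.0511), Msx1, Mdk, Nr4a2, Lyz2 and Tcf7l2. Testing against 1.2-fold, 13 were lost: Gabbr1, Htr5a, Lyz2, Mdk, Msx1, Ndufb10, P2ry12, Rara, Rgs5, Sik1, Slc2a1, Tagln and Tcf7l2 (adjusted p from 0.0732 to 0.909). As rats were left out, Folr1, Cfap300, Chat, Htr5a, Tbr1 and Bmper each fell under the filter at least once and had no test there. The signal over background is not given per probe set, so that a low level is known only as low.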

Other observations

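Of 2847 genes with more than 1 probe set, 38 had probe sets called in opposite directions between the regions. Arpp21, a calcium and cyclic AMP regulated phosphoprotein gene, had differences of 2.41 (SE 0.05), 1.79 (SE 0.05) and -1.11 (SE 0.08) by its 3 called probe sets. By the first, values were 10.02, 10.22, 9.95, 10.04 and 10.08 in frontal cortex and 12.36, 12.58, 12.42, 12.51 and 12.51 in striatum, and by the last 10.43, 10.39, 10.55, 10.38 and 10.48 and then 9.02, 9.48, 9.34, 9.44 and 9.41. Dclk1, a kinase of microtubules, had differences of 0.73, -0.44 and -1.26. The septins Septin6 (0.91 and -1.13) and Septin8 (0.91 and -0.99) did likewise, with an adjusted p from limma of at most 7.32e-06. The genes were chosen after their values were seen. Which transcripts the probe sets read was not examined.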
